A study of Homo sapiens with 12 samples.

Results

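The type I interferon response genes are 38 genes, interferon-stimulated genes and their regulators, taken by symbol from a fixed list and matched through Ensembl gene identifiers to the deposited table of 60675 genes, of which 30808 had at least 1 count. All 38 members were found. They were measured by RNA-seq in SW1783, an established human astrocytoma line, after 24 h with a hot-water extract of the root of Aconitum carmichaeli Debeaux (ACD), a herb used in traditional East Asian medicine. The 4 groups of 3 libraries were vehicle (phosphate-buffered saline with 2% DMSO), low dose (20 µg/mL), medium dose (100 µg/mL) and high dose (500 µg/mL). All 12 libraries came from this single line, and the extract was brought in the same buffer with DMSO, so every group shared line and solvent. Titles and treatment labels name ACD throughout, whereas the treatment protocol stored with the samples describes another herb, Poria cocos, and that text was not used. The labels do not say whether the 3 libraries of a group came from separate cultures, so p-values measure the spread between these libraries, which may be technical.

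Type I interferons are secreted proteins that most cells make after sensing foreign nucleic acid. They bind the receptor IFNAR1 and IFNAR2, whose kinases phosphorylate STAT2, which joins IRF9 in a complex that binds interferon-stimulated response elements (ISREs) in the promoters of its target genes. The products of the targets block viral entry, translation and replication, sense RNA, or feed back on the pathway. Some of the same genes can also be switched on through IRF1 or IRF3 without interferon, and astrocytes are known as both producers and responders of type I interferon in the brain.

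The ISRE and 2 other elements were looked for in the RefSeq promoter windows (GRCh38.p14), which run from 250 bases before to 50 bases after a gene start, on both strands. The core of the ISRE was searched as GAAA, any 2 bases and GAAA again, the gamma-activated site (GAS) as TTC, any 3 bases and GAA, and a kappa B site as GGGA, any 4 bases and CC. A window was held for 31 of the 38 members, all but IRF7, IFIT2, OAS2, OASL, MX2, UBA7 and USP18. The ISRE core stood in 18 of the 31 windows (58.1%) and in 3.65% of all 27305 windows. GAS stood in 9 member windows (29.0%) and in 7.88% of all, and kappa B in 10 (32.3%) and in 25.1% of all. The promoters of 4 members are printed, as far as the gene start and without the bases after it, because their genes carry the contrast described later: IFIT3 and HERC5 rose at the high dose, whereas IFIT1 and ISG15 did not pass the test. Capitals mark the ISRE core, read on either strand.
IFIT3, chr10:89327747-89327996, plus strand: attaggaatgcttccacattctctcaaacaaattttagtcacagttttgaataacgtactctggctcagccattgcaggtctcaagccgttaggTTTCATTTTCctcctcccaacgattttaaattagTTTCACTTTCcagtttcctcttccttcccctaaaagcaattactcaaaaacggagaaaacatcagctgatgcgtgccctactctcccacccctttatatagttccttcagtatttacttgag
IFIT1, chr10:89392373-89392622, plus strand: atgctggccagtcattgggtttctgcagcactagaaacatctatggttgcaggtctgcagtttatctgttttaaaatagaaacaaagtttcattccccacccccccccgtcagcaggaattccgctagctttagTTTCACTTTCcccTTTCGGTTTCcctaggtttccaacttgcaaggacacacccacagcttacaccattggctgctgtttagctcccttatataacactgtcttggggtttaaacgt
HERC5, chr4:88456869-88457118, plus strand: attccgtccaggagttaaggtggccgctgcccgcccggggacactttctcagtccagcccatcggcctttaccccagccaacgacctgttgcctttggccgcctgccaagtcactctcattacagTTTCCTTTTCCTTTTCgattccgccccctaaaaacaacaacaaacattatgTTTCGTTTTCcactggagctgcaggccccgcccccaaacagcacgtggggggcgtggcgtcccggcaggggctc
ISG15, chr1:1013247-1013496, plus strand: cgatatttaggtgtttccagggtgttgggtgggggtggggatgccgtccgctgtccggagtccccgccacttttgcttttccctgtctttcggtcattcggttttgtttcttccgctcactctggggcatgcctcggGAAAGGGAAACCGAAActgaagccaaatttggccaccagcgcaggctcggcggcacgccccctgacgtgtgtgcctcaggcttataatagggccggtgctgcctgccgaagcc
All 4 hold the core. In IFIT3 it begins at positions -156 and -122 from the start and in IFIT1 at -116 and -103. HERC5 holds it at -125 and -119, which overlap, and at -74, and ISG15 holds overlapping copies at -113 and -107. IRF1, the member of the 4 transcription factors with the largest log2 fold change, has no ISRE core in its window. Capitals mark its GAS at -124 and its kappa B site at -50.
IRF1, chr5:132490774-132491023, minus strand: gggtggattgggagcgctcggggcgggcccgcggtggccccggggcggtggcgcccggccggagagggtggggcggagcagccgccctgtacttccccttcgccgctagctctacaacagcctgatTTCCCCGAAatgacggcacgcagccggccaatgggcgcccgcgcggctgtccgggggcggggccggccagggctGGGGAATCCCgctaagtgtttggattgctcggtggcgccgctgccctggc
A match is a run of letters and was not tested as a bound site.

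At the high dose, 11 of the 38 members were called (28.9%), where a call needed a DESeq2 adjusted p under 0.05 over all genes tested and a fold over 1.5. Of all 19453 genes tested in that comparison 18.2% were called. The called members split unevenly: 9 were higher (23.7% of members against 8.66% of all genes), namely STAT2, IRF1, IRF7, DDX60, IFIT2, IFIT3, HERC5, RSAD2 and XAF1, and 2 were lower (5.26% against 9.57%), USP18 and PARP9. Tested against the 1.5-fold limit itself rather than against no change, 6 stayed calls and HERC5, IFIT3, XAF1, USP18 and PARP9 did not. The same test called 1484 of 18856 genes. A further 10 members had an adjusted p under 0.05 with a fold under 1.5, of which IFIH1, RIGI, OASL, MX1 and SP100 were higher and OAS2, IFI44, IFI44L, SAMD9 and BST2 lower. Counted by adjusted p alone, this made 21 of 38 members (55.3%), where the same rule took 46.5% of all genes. The remaining 17 were IRF9, IFIT1, IFIT5, OAS1, OAS3, MX2, ISG15, UBA7, HERC6, IFI6, IFI27, IFI35, CMPK2, ISG20, SAMD9L, PARP14 and EPSTI1. For 12 of these 17 the 95% interval of the log2 fold change lay inside a 1.5-fold change either way, and for 5 it reached that limit. The median log2 fold change of the 38 was 0.11, beside -0.0096 over all genes tested. A rise of called members such as IFIT2, IFIT3 and RSAD2 thus stood beside other interferon-stimulated genes, such as ISG15, IFIT1 and IFI6, that did not pass the test. These examples were picked after their values were seen. OAS1 did not pass either, but its counts were low and its interval reached the 1.5-fold limit.

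**Figure D1:**
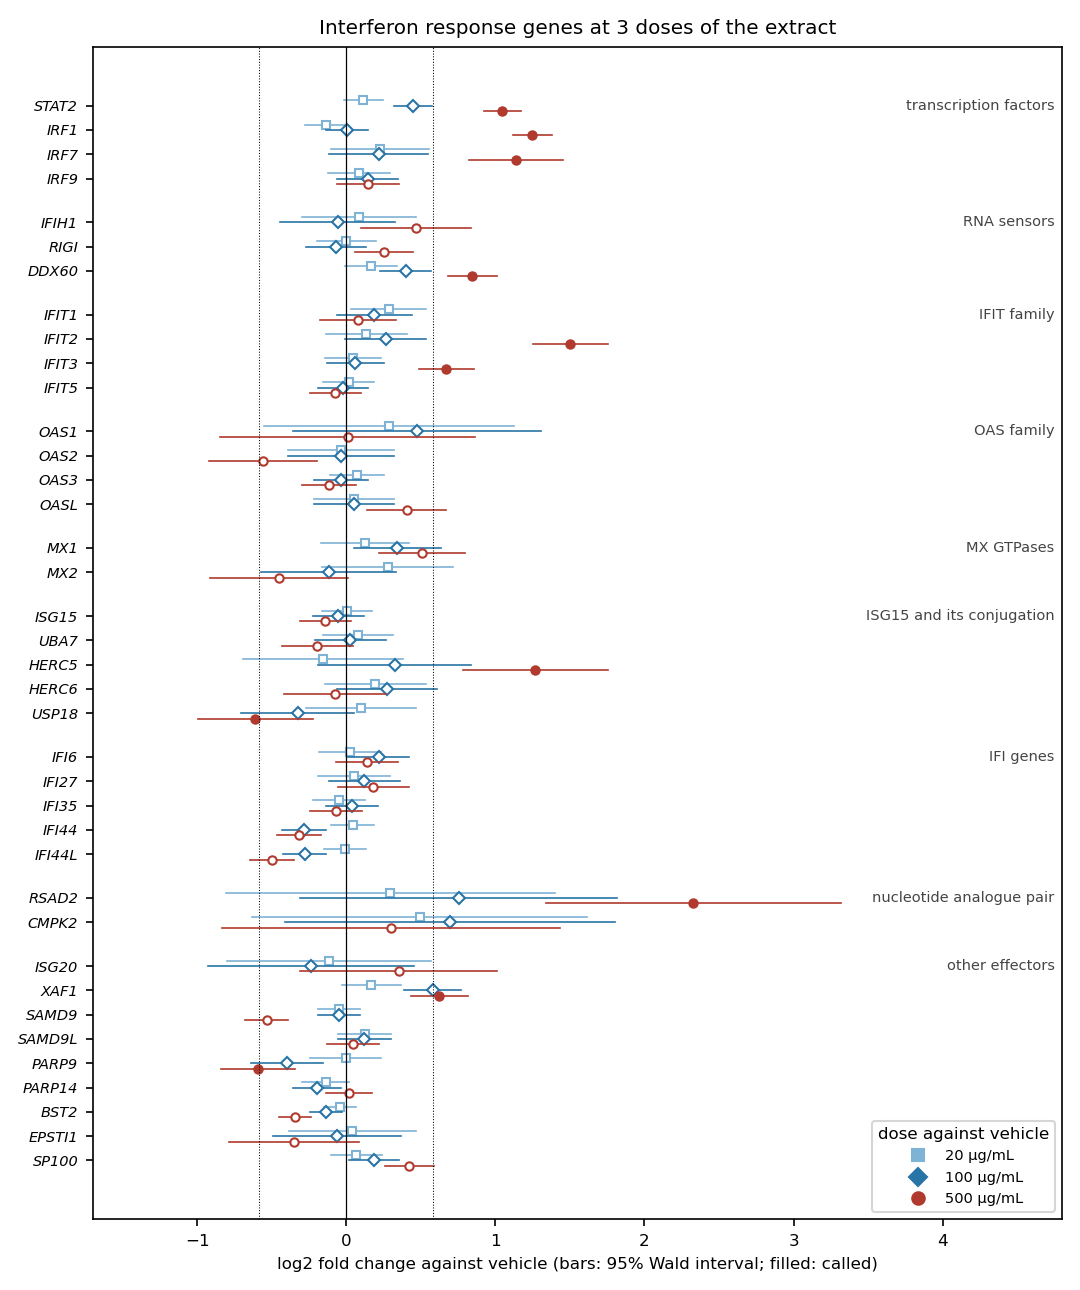
Log2 fold change (x axis) of each of the 38 members (y axis, grouped by role) at 20, 100 and 500 µg/mL against the same 3 vehicle libraries, with 95% Wald intervals; filled symbols are called and dotted lines mark a 1.5-fold change. Filled symbols occur only at 500 µg/mL, 9 to the right of 0 and 2 to the left.

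Expression levels with vehicle spanned about 3 orders of magnitude. Genes were compared on a scale of normalised counts per kilobase of annotated exon, where the length is the union over all annotated isoforms. This union was 867 bases for ISG15 and 12265 for IRF1. It can exceed the transcript that a cell makes, so the order between genes is approximate. The mean with vehicle was 1704 for BST2, the membrane tether that holds budding virus, 683 for ISG15, the ubiquitin-like modifier, 531 for IFI6 and 434 for IFI44. At the other end stood CMPK2 at 1.84, OAS1 at 1.32 and RSAD2 at 1.21. Of the called members STAT2 and IFIT3 had 75.6 and 85.9, and the rest lay between 1.21 and 45.0 per kilobase. None of the 7 members with the highest levels with vehicle was called, where 18.2% of all genes were. Next in that order came IFIT3, a called member, so the cut at 7 follows the outcome. The member with the lowest level, RSAD2, had the largest log2 fold change, from 3, 8 and 10 counts in the vehicle libraries. The level with vehicle is also the denominator of the fold change, so the 2 are linked in advance. On this scale at the high dose STAT2 reached 156, IFIT3 137, IRF1 104 and IFIT2 95.7, whereas ISG15 stood at 619. These 5 genes were put side by side after their values were seen.

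**Figure D2:**
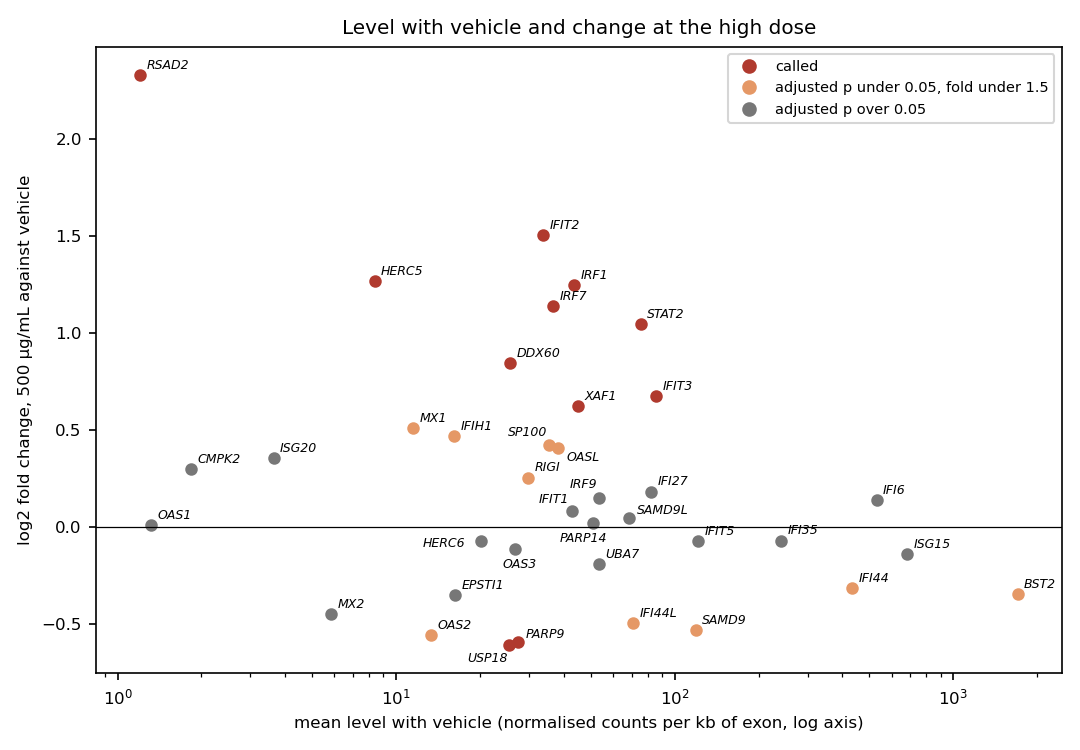
Mean level with vehicle (x axis, normalised counts per kb of exon, log axis) and log2 fold change at 500 µg/mL against vehicle (y axis) for each of the 38 members, coloured by the outcome of the test. RSAD2 lies at the far left and top, and the members with the highest levels, BST2, ISG15, IFI6 and IFI44, lie near or under 0. The level on the x axis also enters the fold change on the y axis.

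Of the 4 transcription factors 3 were called higher at the high dose, where 8.66% of all genes were, and 1 did not pass the test. A set of 4 chosen genes was not tested as a group. Spans given with the called members are their gene bodies in GENCODE 44 (GRCh38), exons and introns together. STAT2 (chr12:56341597-56360203), the interferon-specific subunit of the ISRE-binding complex, had 695, 767 and 650.5 normalised counts in the vehicle libraries, 759.9, 762 and 769 at the low, 981, 931 and 979 at the medium and 1425, 1494 and 1452 at the high dose. The low dose overlapped vehicle, and each higher dose lay above all libraries of the dose before it. The log2 fold change was 0.45 (SE 0.0653, adjusted p = 1.45e-10) for medium dose against vehicle, short of the fold limit, and 1.05 (SE 0.0634, adjusted p = 7.79e-60) for high dose against vehicle. IRF1 (chr5:132440440-132508719), an activator that binds ISREs and related sites on its own, had 514, 558 and 532 normalised counts with vehicle, 486, 507 and 472 at the low, 539, 522 and 550.3 at the medium and 1239, 1297 and 1274 at the high dose. The medium dose overlapped vehicle, the low dose lay slightly under it without a call, and at the high dose the increase was 2.37-fold (log2 1.25, SE 0.0674, adjusted p = 7.88e-75). IRF7 (chr11:612553-615983), which drives interferon alpha genes, had 79.9, 109.5 and 97.8 normalised counts with vehicle, 103, 110.2 and 125 at the low, 109, 107 and 119 at the medium and 199, 211 and 224 at the high dose. It rose 2.20-fold at the high dose (log2 1.14, SE 0.16, adjusted p = 7.09e-12), and the lower doses overlapped vehicle. IRF9, the DNA-binding partner of STAT2, had 349, 358 and 329.9 with vehicle, 388, 345 and 368 at the low, 425, 378 and 347 at the medium and 345, 380.2 and 421 at the high dose. The 4 groups of IRF9 overlapped, and high dose against vehicle gave a log2 fold change of 0.15 with a 95% interval of -0.059 to 0.35 (adjusted p = 0.268). STAT2 was thus called where its partner IRF9 was not. Genes that overlap these factors limit 2 of the readings: 22.9% of the exon bases of IRF1 are shared with genes on the opposite strand, among them IRF1-AS1 (log2 0.39, adjusted p = 0.0529), and 23.9% of those of IRF9 with a gene on its own strand. The library kit keeps strand, but the strand setting of the counting is not given in the sources used here.

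**Figure D3:**
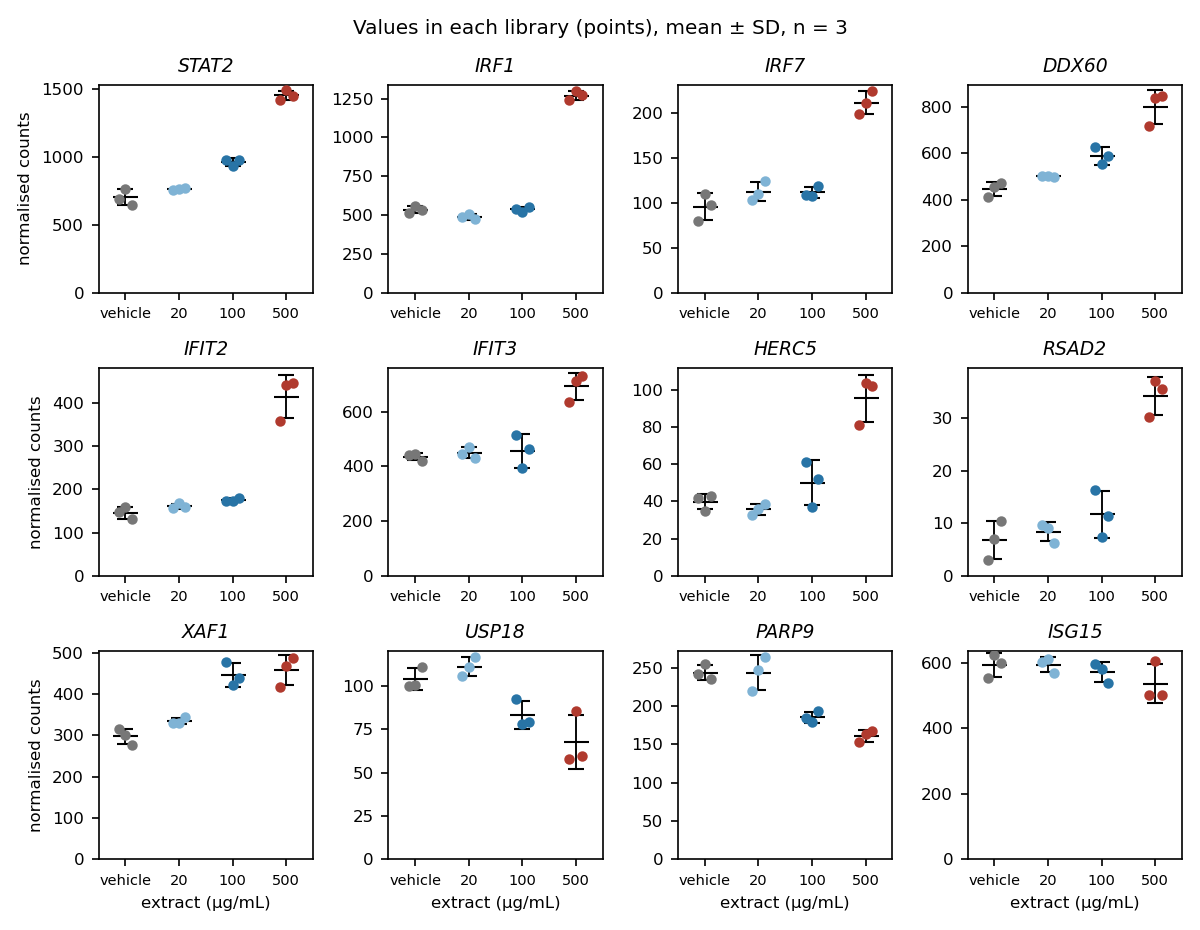
Normalised counts (y axis, from 0) in each library (points) with mean ± SD (bars, n = 3) for vehicle and 20, 100 and 500 µg/mL (x axis), for the 11 called members and ISG15. STAT2 and DDX60 climb over the medium and high doses, IRF1, IRF7, IFIT2 and IFIT3 take their largest step between 100 and 500 µg/mL, XAF1 is about as high at 100 as at 500 µg/mL, and the ISG15 groups overlap.

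All 3 cytosolic RNA helicases were higher at the high dose by adjusted p, and DDX60 alone passed the fold limit. By adjusted p alone 4641 of all 19453 genes were higher there, and 8.66% of all genes were called higher. DDX60 (chr4:168216291-168318883), a helicase that promotes signalling by RIG-I-like receptors, had 413, 454 and 470.4 normalised counts with vehicle, 502, 502 and 496 at the low, 628, 552 and 587 at the medium and 715, 837 and 846 at the high dose. Each dose lay above all vehicle libraries, and the log2 fold change went from 0.17 (adjusted p = 0.382) through 0.40 (adjusted p = 4.33e-05) to 0.85 (SE 0.0851, adjusted p = 3.28e-22). IFIH1, which encodes the long double-stranded RNA sensor MDA5, had 91.2, 78.8 and 83.3 with vehicle, 79.8, 91.8 and 97.3 at the low, 91.6, 79.2 and 73.5 at the medium and 98.4, 115 and 135 at the high dose. The high-dose libraries stood above the other groups by a small margin, with a log2 fold change of 0.47 (SE 0.19, adjusted p = 0.0311). RIGI, the sensor of short RNA with a triphosphate end, had 313, 316 and 293 with vehicle, 301, 314 and 308 at the low, 307, 270.3 and 303 at the medium and 347, 376 and 375 at the high dose. Its high-dose libraries also lay above all others, at a log2 fold change of 0.25 (SE 0.0992, adjusted p = 0.0252). Another annotated gene on the same strand shares 43.2% of the exon bases of RIGI and has no count in the table, so the counts could not be divided between them.

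The IFIT family encodes cytosolic proteins that bind foreign RNA and block its translation, and its 4 members, which lie next to each other on chromosome 10, did not move alike. IFIT2 (chr10:89283694-89309271) had 149, 159 and 131 normalised counts with vehicle, 156, 167 and 159 at the low, 174, 172 and 181 at the medium and 357, 441 and 445 at the high dose. The medium dose lay above vehicle and the low dose by a small margin (log2 0.26, adjusted p = 0.141 in DESeq2 and 0.0497 in edgeR), and the high dose was 2.84-fold above vehicle (log2 1.50, SE 0.129, adjusted p = 2.94e-30), with the first high-dose library the lowest of the 3. IFIT3 (chr10:89327307-89377473), which binds and stabilises IFIT1, had 439.6, 446 and 420.5 with vehicle, 446, 470.2 and 432 at the low, 513, 392 and 462 at the medium and 637, 712 and 730.5 at the high dose. It rose 1.59-fold at the high dose (log2 0.67, SE 0.0934, adjusted p = 4.2e-12), close to the 1.5-fold limit. IFIT1, which binds RNA that lacks a mature cap, is given here as a choice made after its values were seen. It had 188, 190.1 and 213 with vehicle and 179, 212 and 230.1 at the high dose, groups that overlapped, with a log2 fold change of 0.079 and a 95% interval of -0.18 to 0.33 (adjusted p = 0.672). At the low dose IFIT1 had 228, 257 and 234, above all vehicle libraries (log2 0.28), with no adjusted p in DESeq2 and an adjusted p of 0.108 in edgeR, and at the medium dose 245, 209 and 221, which overlapped vehicle. IFIT5 had a log2 fold change of -0.073 with an interval of -0.24 to 0.10. For both at the high dose, the upper end of the interval lay under a 1.5-fold increase.

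The OAS enzymes, which make the nucleotide signal that activates RNase L, and the MX GTPases, which trap viral nucleocapsids, gave no called member among 6. Of all genes 18.2% were called at the high dose, and so small a set was not tested as a group. OAS2 had 144, 172 and 133 normalised counts with vehicle, 140.4, 158 and 141 at the low, 191, 130.5 and 121 at the medium and 86.8, 107 and 110.4 at the high dose. All high-dose libraries lay under all vehicle libraries, and the log2 fold change of -0.56 (SE 0.186, adjusted p = 0.0068) fell just short of the fold limit. Leaving out vehicle library 1 or 3, or high-dose library 2 or 3, made OAS2 a call at -0.59, -0.64, -0.60 and -0.62. OASL, the catalytically inactive relative that enhances RIG-I signalling, was higher (log2 0.41, adjusted p = 0.00678), OAS3 had -0.12 (interval -0.30 to 0.065), and OAS1 had 0.0086 with a wide interval of -0.85 to 0.86 at counts of 10.4 to 32.5 normalised in all libraries. MX1 had 198, 223 and 202 normalised counts with vehicle, 200.1, 261 and 218 at the low, 318, 249 and 226 at the medium and 244, 336 and 303 at the high dose. The high-dose libraries lay above vehicle and overlapped the medium dose, with a log2 fold change of 0.51 (SE 0.148, adjusted p = 0.0017) that became a call at 0.62 without high-dose library 1. MX2 had -0.45 with an interval of -0.91 to 0.0088 (adjusted p = 0.106).

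Of the 5 members of ISG15 conjugation, 1 was called higher, 1 was called lower and 3 did not pass the test. Of all genes 8.66% were called higher and 9.57% lower at the high dose. HERC5 (chr4:88457119-88506163), the main ligase that attaches ISG15 to new proteins, had 42.0, 35.0 and 42.7 normalised counts with vehicle, 32.7, 35.7 and 38.7 at the low, 61.4, 37.3 and 51.8 at the medium and 81.0, 104 and 102 at the high dose. The high-dose libraries lay above all others, 2.41-fold over vehicle (log2 1.27, SE 0.249, adjusted p = 1.54e-06). USP18 (chr22:18150118-18177397), which removes ISG15 from proteins and also blocks signalling at IFNAR2, had 100.4, 101 and 111 with vehicle, 106, 111 and 117 at the low, 92.7, 78.3 and 79.2 at the medium and 57.9, 85.6 and 59.9 at the high dose. The second high-dose library stood above the other 2 but still under vehicle, and the log2 fold change was -0.61 (SE 0.197, adjusted p = 0.00537). The call of USP18 was lost without vehicle library 3 or high-dose library 1 or 3, at -0.56, -0.51 and -0.52. USP18 also has a near-identical copy in the genome, among which RSEM divides reads by estimate, so its level is uncertain. ISG15 itself, likewise chosen after its values were seen, had 552, 624 and 601 with vehicle and 502, 605 and 502 at the high dose. These groups overlapped, with a log2 fold change of -0.14 and an interval of -0.31 to 0.030 (adjusted p = 0.187). UBA7, the activating enzyme of ISG15, had -0.19 (interval -0.43 to 0.045), and HERC6 had -0.074 (interval -0.42 to 0.27).

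RSAD2 (chr2:6865557-6898239), which encodes viperin, an enzyme that makes a chain-terminating nucleotide, showed the largest fold change of the 38 from the lowest level. It had 3.07, 7.01 and 10.4 normalised counts with vehicle, 9.62, 9.18 and 6.28 at the low, 16.2, 7.46 and 11.3 at the medium and 30.1, 36.9 and 35.5 at the high dose, which rest on 3 to 41 counts a library. All high-dose libraries lay above all others, and the increase was 5.02-fold with a wide interval (log2 2.33, 1.34 to 3.32, adjusted p = 1.49e-05). CMPK2, the neighbouring kinase that supplies the substrate of viperin, was at 4.63 to 16.2 normalised counts over all libraries, with a log2 fold change of 0.30 (interval -0.84 to 1.43, adjusted p = 0.723). The interval of CMPK2 reached a 1.5-fold change in both directions, so a change of that size was not detectable at this depth.

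Of the 5 IFI genes none was called, where 18.2% of all genes were called at the high dose. By adjusted p alone 2 of the 5 were lower, beside 4399 of all 19453 genes. IFI44L, an interferon-induced gene next to IFI44, had 827, 826 and 816 normalised counts with vehicle, 794, 865 and 799 at the low, 708, 646 and 682 at the medium and 522, 600.0 and 620.1 at the high dose. It stepped down without overlap at the medium dose (log2 -0.28, adjusted p = 0.000934) and again at the high dose (-0.50, SE 0.0743, adjusted p = 1.2e-10). IFI44 was lower by about the same amount at both doses, with log2 fold changes of -0.29 (adjusted p = 0.000932) and -0.32 (adjusted p = 8.85e-05). IFI6, IFI27 and IFI35 ranged from -0.071 to 0.18 on the log2 scale at the high dose, and the interval of each lay inside a 1.5-fold change.

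Among the 9 other effectors 1 was called higher, 1 was called lower and 3 were changed by less than the fold limit. The share called was 22.2%, near the 18.2% of all genes. XAF1 (chr17:6755447-6775647), a pro-apoptotic factor, had 315, 301 and 278 normalised counts with vehicle, 329.9, 330.5 and 344 at the low, 479, 421 and 439 at the medium and 418, 469 and 487 at the high dose. The medium and high doses overlapped each other and lay above vehicle and the low dose. Against vehicle the medium dose gave a log2 fold change of 0.58 (adjusted p = 5.18e-08), just under the fold limit, and the high dose gave 0.62 (SE 0.0975, adjusted p = 9.11e-10), just over it. Without vehicle library 3 or high-dose library 3 the high-dose value was 0.58 and no longer a call, and the medium dose became a call without vehicle library 1 or 2 or medium-dose library 2 or 3. On the opposite strand the gene PRAL shares 38.3% of the exon bases of XAF1, and its mean was 20.4 normalised counts with vehicle and 12.3 at the high dose. PARP9 (chr3:122527924-122564577), which pairs with a ubiquitin ligase to amplify interferon signalling, had 242, 255 and 235 with vehicle, 219, 247 and 265 at the low, 184, 179 and 193 at the medium and 153, 164 and 167 at the high dose. The medium and high doses lay under vehicle without overlap (log2 -0.40, adjusted p = 0.00715, and -0.59, SE 0.126, adjusted p = 9.93e-06), and the high-dose call was lost without vehicle library 2 or high-dose library 1, each at -0.56. SAMD9, an antiviral factor that restricts translation, had 848, 779.7 and 820.1 with vehicle, 782, 820.1 and 763 at the low, 852, 725 and 793 at the medium and 587, 541 and 563 at the high dose. Only the high dose stood apart, at a log2 fold change of -0.53 (SE 0.0747, adjusted p = 5.81e-12). SP100, a component of nuclear bodies that silences viral DNA, had 531, 509.9 and 465 with vehicle, 529, 515 and 536 at the low, 613, 577 and 529 at the medium and 678, 723 and 619 at the high dose, with the high dose above all others (log2 0.42, SE 0.0846, adjusted p = 2.36e-06). BST2 was lower by a small amount in every high-dose library (log2 -0.35, adjusted p = 1.61e-09), and ISG20, SAMD9L, PARP14 and EPSTI1 ranged from -0.35 to 0.35 without passing the test.

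The response of the members was mostly a high-dose one. At the low dose 0 of 38 members were called and 0 had an adjusted p under 0.05 in DESeq2, where 21 received an adjusted p. Of all 9304 genes tested there 0.118% were called and 3.29% had an adjusted p under 0.05. An unadjusted p under 0.05 was found for 1 member, IFIT1, in DESeq2 and 6 in edgeR, which also called 0 members, beside 30 of 15983 genes. At the medium dose DESeq2 called 0 of 38 where 3.81% of 14082 genes were called, and 11 members had an unadjusted p under 0.05. By adjusted p alone 7 members differed from vehicle at the medium dose, with STAT2, DDX60 and XAF1 higher and IFI44, IFI44L, PARP9 and BST2 lower, beside 29.5% of all genes. edgeR gave 14 members with an unadjusted p under 0.05, 11 with an adjusted p under 0.05 and 0 calls. Of the 15983 genes that edgeR tested there, 5695 had an adjusted p under 0.05 and 809 were called. RSAD2 and CMPK2 received no adjusted p at the medium dose because of their low counts. The 3 dose comparisons share the vehicle libraries, so agreement between them is not independent.

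The high dose was also set against the medium dose, in which case 7 members were called, all higher (18.4% of members against 4.58% of 16467 genes, and 10.2% of genes in either direction). These were STAT2, IRF1, IRF7, IFIT2, IFIT3, HERC5 and RSAD2, with log2 fold changes of 0.60, 1.24, 0.92, 1.24, 0.61, 0.94 and 1.57. STAT2 lost its call without medium-dose library 2 or high-dose library 2, and IFIT3 without medium-dose library 2 or high-dose library 3. In edgeR 8 members were called, these 7 and ISG20 (log2 0.59, adjusted p = 0.0386), beside 2035 of 15983 genes. OAS2 became a call, lower, without medium-dose library 2 or 3 or high-dose library 3, and IFIH1 without medium-dose library 1 or high-dose library 1. DDX60 differed by 0.45 (adjusted p = 5.06e-07), short of the fold limit, and XAF1 by 0.044 with an interval of -0.14 to 0.23 (adjusted p = 0.759). Neither USP18 (-0.28, adjusted p = 0.275) nor PARP9 (-0.20, adjusted p = 0.232) passed the test between these doses. Between the medium and the low dose edgeR called 0 members beside 427 of 15983 genes, with 11 members at an unadjusted p under 0.05. DESeq2 called 0 members beside 1.94% of all genes, with 7 members at an unadjusted p under 0.05. In that comparison 6 members, beside 18.9% of all genes, had an adjusted p under 0.05, namely STAT2 (0.33), DDX60 (0.23) and XAF1 (0.41) higher and IFI44 (-0.33), IFI44L (-0.27) and PARP9 (-0.39) lower. A likelihood ratio test over the 4 groups, again in DESeq2, found a difference in 23 of 38 members (60.5%) and in 45.8% of all genes. With the replicate number as a block it found 17 members (44.7%) and 45.6% of all genes, so that the share of members was near that of all genes.

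Neighbouring members were also set against each other. The 11 pairs of members under 150 kb apart were compared, which were chosen after the values were seen, by the log2 ratio of their normalised counts (each plus 0.5) within a library. The exact two-sided permutation test of 3 against 3 libraries cannot go under p = 0.1, which becomes 0.122 after adjustment over the 11 pairs, so no pair could pass the threshold. In that exact permutation test any pair whose high-dose and vehicle ratios do not overlap gives p = 0.1, so the p adds nothing to the overlap. In 9 of the 11 pairs the high-dose ratios did not overlap the vehicle ratios (81.8%). The same held for 50.2% of 16671 pairs of neighbouring genes under the same distance among all genes tested. These shares are not like for like. Member pairs can have other genes between them, whereas the pairs among all genes are consecutive tested genes. IFIT3, IFIT1 and OAS3 are also each shared between member pairs. For IFIT2 over IFIT3 the log2 ratio was -1.56, -1.49 and -1.68 with vehicle and -0.84, -0.69 and -0.71 at the high dose, a difference of 0.83. For IFIT3 over IFIT1 it was 1.23, 1.23 and 0.98 with vehicle and 1.82, 1.75 and 1.66 at the high dose, a difference of 0.60. In these libraries IFIT2 stood higher against IFIT3, and IFIT3 higher against IFIT1, at the high dose than with vehicle, in ratios that could not pass the test. HERC6 over HERC5 went from 1.40, 1.92 and 1.26 to 0.42, -0.077 and 0.30, a difference of -1.31. CMPK2 over RSAD2, genes that are read in opposite directions and share some exon bases, went from 1.10, 0.30 and -0.31 to -2.58, -1.42 and -1.62, a difference of -2.24. The other pairs without overlap were MX2 over MX1 (-0.94), PARP9 over PARP14 (-0.61), SAMD9 over SAMD9L (-0.57), OAS3 over OAS2 (0.43) and IFI44L over IFI44 (-0.19). The ratios overlapped for IFIT1 over IFIT5 (difference 0.15, exact permutation p = 0.3) and OAS1 over OAS3 (difference 0.22, exact permutation p = 0.7).

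**Figure D4:**
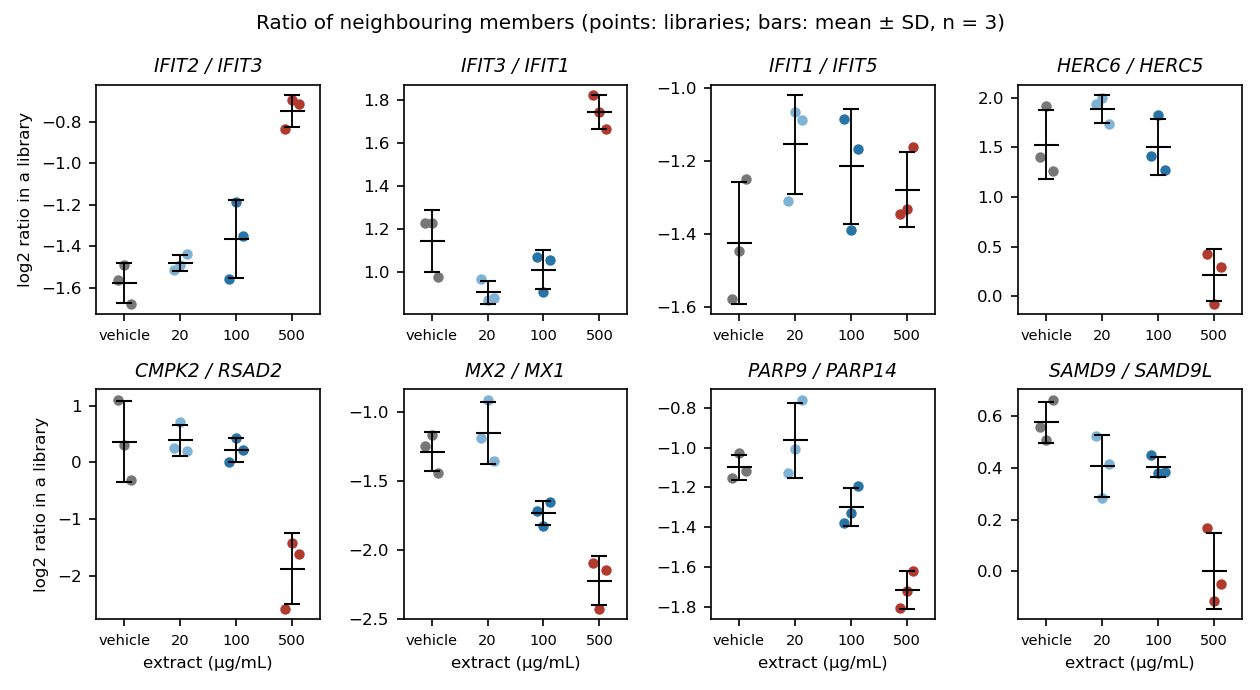
Log2 ratio of the normalised counts of 2 neighbouring members within each library (points) with mean ± SD (bars, n = 3), for vehicle and 20, 100 and 500 µg/mL (x axis); the y axes do not start at 0. At 500 µg/mL the points leave the vehicle range in 7 of the 8 panels, and in the panel of IFIT1 and IFIT5 they overlap it.

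Motif matches were also counted by outcome at the high dose. No window was held for IRF7 and IFIT2, called higher, or for USP18, called lower. Of all windows 3.65% held the ISRE core, 7.88% GAS and 25.1% kappa B. The ISRE core was found in 3 of the 7 called higher members with a window (DDX60, HERC5 and IFIT3) and in 0 of 1 called lower. It was found in 6 of 8 with an adjusted p under 0.05 but no call, and in 9 of 15 that did not pass the test. Among these 15 were ISG15, IFIT1 and IFI6, whose windows hold it as the printed sequences of ISG15 and IFIT1 show. GAS was found in 2 of the 7 called higher members, DDX60 and IRF1, and in 6 of the 15 that did not pass. Kappa B was found in 2 of the 7, IRF1 and XAF1, and in 4 of the 15. No test was made of these counts.

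The rest of the pathway was read from a further list of 77 genes. At the high dose 16 of them were called (20.8%, against the background of 18.2%), 9 higher and 7 lower. By adjusted p alone 41 of them differed (53.2%, against 46.5% of all genes), of which 19 were higher and 22 lower. Both shares were near those of all genes. Of the 12 listed interferon genes, all but IFNE had a mean of at most 4.10 normalised counts over the 12 libraries. IFNB1, which encodes interferon beta, had 0 counts in all 9 vehicle, low-dose and medium-dose libraries and 2 counts in each of the 3 high-dose libraries, all under the floor of 3 counts, so no fold is given. Of these genes 2 had enough counts to receive an adjusted p, and DESeq2 and edgeR called 0, with 1 at an unadjusted p under 0.05 in each. That gene was IFNE, at 115 normalised counts per kilobase with vehicle, named after its values were seen, which had 166, 169 and 174 normalised counts with vehicle and 131, 132 and 116 at the high dose (log2 -0.43, adjusted p = 0.0151). It is a type I interferon that the reproductive tract is known to make without infection. The receptor chains were not called, whereas of their kinases JAK2 was called higher (log2 0.69, adjusted p = 4.51e-22) and JAK1 and TYK2 were higher short of the fold limit (0.39 and 0.29), all 3 named after their values were seen. IFNAR1 had 2585, 2536 and 2438 normalised counts with vehicle and 2151, 2039.7 and 2044 at the high dose, lower without overlap by a small amount (log2 -0.28, SE 0.0408, adjusted p = 4.14e-11). IFNAR2 had 529.8, 627 and 606 with vehicle and 551, 477 and 527 at the high dose, which overlapped (log2 -0.18, adjusted p = 0.0718). IRF3, the factor that switches on IFNB1 after sensing, had 1086, 1062 and 1083 with vehicle and 866, 937 and 846 at the high dose (log2 -0.29, adjusted p = 5.71e-06).

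Genes of sensing and induction moved in both directions, with 4 of 13 called higher (30.8%, against 8.66% of all genes) and 2 called lower (15.4%, against 9.57%). IKBKE, a kinase that phosphorylates IRF3, had 194, 185 and 187 normalised counts with vehicle and 68.3, 69.4 and 78.6 at the high dose, and fell by 1.38 on the log2 scale (SE 0.156, adjusted p = 6.67e-18). TLR3, the endosomal sensor of double-stranded RNA, had 67.6, 66.6 and 70.8 with vehicle and 27.8, 34.2 and 41.2 at the high dose (log2 -0.98, adjusted p = 0.000331). DHX58, which encodes the regulatory helicase LGP2, had 95.3, 80.6 and 90.5 with vehicle and 182, 191 and 183 at the high dose (log2 1.07, adjusted p = 1.03e-10), and TRIM25, a ligase that acts on RIG-I signalling, was higher by 1.05 (adjusted p = 8.92e-120). The helicase DHX58 and TRIM25 thus rose where IKBKE and TLR3 fell. Among 35 further interferon-stimulated genes 4 were called higher and 4 lower, 11.4% each way, near the shares of all genes. LAMP3, a lysosomal membrane protein, had 1.02, 5.26 and 3.12 with vehicle, 22.0, 15.8 and 19.8 at the medium and 61.4, 94.6 and 84.2 at the high dose (log2 4.64, SE 0.553, adjusted p = 4.6e-16), from few counts with vehicle. SLFN5, a Schlafen family protein, had 3287, 3454 and 3253 with vehicle, 5446, 5410.0 and 5629 at the medium and 8372, 8153 and 8541 at the high dose, a log2 fold change of 1.33 (95% interval 1.26 to 1.39). LAMP3 and SLFN5 were also the 2 genes of the 77 called at the medium dose, at log2 fold changes of 2.57 and 0.72. That was 2.60% of the list, beside 3.81% of all genes. TNFSF10, which encodes the death ligand TRAIL, had 25.6, 27.2 and 23.9 with vehicle and 5.79, 4.50 and 6.55 at the high dose (log2 -2.19, adjusted p = 5.85e-05). The guanylate-binding protein GBP2 was lower (log2 -0.91, adjusted p = 6.1e-08), and the apolipoprotein L gene APOL6 (0.89, adjusted p = 2.64e-85) and the chemokine gene CCL5 (0.95, adjusted p = 0.00798) were higher. The other 6 called genes of the list, labelled in the plot of these genes, were JAK2, TICAM1 and IFI16, higher, and SOCS3, GBP1 and SP110, lower, at log2 fold changes of 0.69, 0.73, 0.65, -0.75, -0.80 and -0.71.

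**Figure D5:**
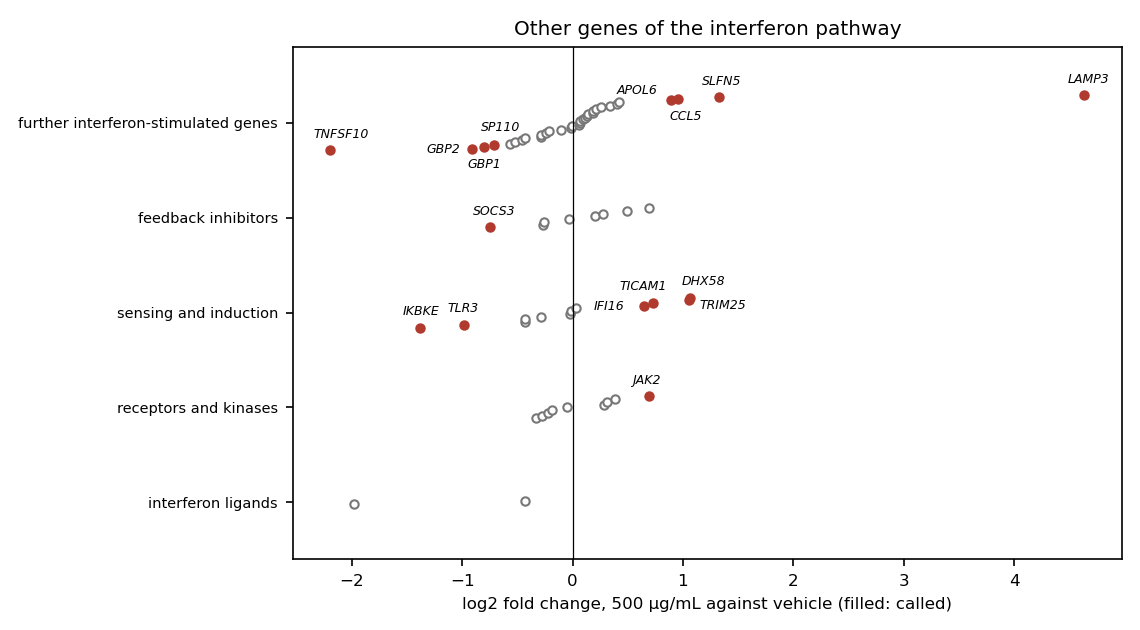
Log2 fold change at 500 µg/mL against vehicle (x axis) of the 64 further pathway genes with an adjusted p, by group (y axis; the vertical spread within a group only separates points); filled points are called. Called points lie on both sides of 0, from TNFSF10 at -2.19 to LAMP3 at 4.64.

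Library totals ran from 18863863 to 24200576 counts with the groups interleaved, and no library stood apart from its group on the first principal component (34.8% of the variance). The labelled cell type was only partly borne out by its defining markers: AQP4 had 0 counts in all 12 libraries, and GFAP, S100B and ALDH1L1 were near 0, whereas VIM, CD44 and SOX9 were abundant. At the high dose SLC1A3 and NES fell (log2 -2.45 and -1.72) and OLIG2 rose from few counts (log2 3.93), and short of the fold limit VIM was higher (0.29) and CD44 and SOX9 were lower (-0.38 and -0.25). The summed level of 7 leukocyte and macrophage markers was 3154 to 3323 normalised counts with vehicle and 3948 to 4231 at the high dose, nearly all of it CD68, with CD14, AIF1, LYZ and ITGAM at or near 0 and PTPRC lower at the high dose (log2 -1.71). The 3 markers of plasmacytoid dendritic cells, the main interferon producers in blood, summed to at most 3.74 normalised counts in any library. In bulk RNA, fewer cells with a transcript and less of it in each cell cannot be told apart.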

How the data were processed

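Libraries of mRNA from the 12 SW1783 samples were made with a kit that keeps strand and sequenced as paired-end reads. Per the submitters' processing notes, the authors used FastQC 0.11.9, Trim Galore 0.6.5, STAR 2.7.3a and RSEM 1.3.3. The deposited table holds the authors' expected counts per Ensembl gene, in which RSEM divides reads shared between genes by estimate (8.75% of values were not whole). Symbols, exon lengths and coordinates come from GENCODE 44, which held 93.2% of the identifiers and 99.9% of the counts. Totals of 18863863 to 24200576 counts a library limit precision mainly for the 4 members whose mean was under 30 normalised counts.

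Expected counts were rounded and fitted with DESeq2 1.42.0 in R 4.3.3 over all 12 libraries, with group as the only term. Wald tests were adjusted by the Benjamini-Hochberg method over all genes that passed independent filtering at 0.05, and a call also needed a fold over 1.5, after the study's methods. The quasi-likelihood test of edgeR 4.0.16 served as alternative, and both were checked on simulated counts. Normalised counts are the rounded counts after division by the DESeq2 size factors. Each library counted as 1 replicate. Libraries of a group differed by more than counting error (chi-square per degree of freedom 1.99 to 3.55), which does not tell whether they came from separate cultures.

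The 38 members, the 77 other pathway genes, the markers and the tests were chosen with earlier results of these data known. Values in every library are given for members called at any dose, for STAT2, IRF1, IRF7, IRF9, IFIH1 and RIGI, and for up to 6 members with an adjusted p under 0.05 short of the fold limit and the largest absolute log2 fold change. Of the other genes, IFNB1, IFNAR1, IFNAR2 and IRF3 and up to 10 called genes of largest absolute log2 fold change are named by rule. A gene left out of that list is not reported here. Beside the marker lists in the results, 5 epithelial markers summed to 4874 to 5078 normalised counts with vehicle and 1809 to 1890.5 at the high dose, mostly KRT18, and 3 endothelial markers to at most 21.0 in any library.

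Pairing by replicate number was checked through the correlation of same-numbered deviations from the group means. It was -0.118 to -0.00687 between vehicle and the doses, so these numbers do not pair vehicle with the doses. Between the low and medium doses it was 0.124 to 0.193, between medium and high 0.0355 to 0.221, and between low and high -0.0191 to 0.135. Alternatives were other size factors, filters and fold limits, the compared groups alone, edgeR, a replicate block, each library left out and a shorter promoter window.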

Additional observations from a re-analysis of the deposited data

How the results depend on the processing

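For the high dose against vehicle the same 11 members were called with both other scalings, all 3 other filters, the 2 groups alone, the replicate block and edgeR. The count was 21 with no fold limit, 6 with a test against the fold limit itself, and 10 to 12 with a library left out. With no fold limit the medium dose gave 7 members, high against medium dose 17 (beside 6738 of 16467 genes) and medium against low dose 6. The test against the fold limit gave 2 members between high and medium dose, beside 480 of 18856 genes. With a library left out the count was 0 to 1 at the medium dose (XAF1) and 6 to 8 between high and medium dose, and 16 to 21 members differed over the 4 groups beside 23 with all libraries.

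With the replicate number as a block the counts of calls were 11, 0 and 0 for the high, medium and low dose against vehicle, 7 for high against medium and 0 for medium against low dose, and 17 members differed over the 4 groups (44.7%, beside 45.6% of all genes). The block changed no call between 2 groups.

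Of 684 fold changes at the high dose under 18 alternatives, 7 in 4 uncalled members changed sign. OAS1 had -0.0023 with edgeR. With a library left out the log2 fold change ran from -0.0024 to 0.17 for IFIT1, from -0.24 to 0.32 for OAS1, from -0.17 to 0.044 for HERC6 and from -0.0019 to 0.61 for CMPK2. None of the 7 had an adjusted p under 0.05, and the cause was not tested. Depth limits OAS1, CMPK2 and ISG20, whose means were under 30 normalised counts and whose intervals reached a 1.5-fold change.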
